A study of Mus musculus with 12 samples.

Results

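The 36 genes examined here make cholesterol and fatty acids, control that synthesis or move cholesterol in the cell, and they were listed by name among the 24439 genes of each expression table. They comprise 7 enzymes from acetyl-CoA to farnesyl diphosphate, 11 enzymes from squalene to cholesterol, 4 genes of the SREBP system, 1 sterol carrier, 9 enzymes of fatty acid synthesis and desaturation, and the nuclear receptor LXR-beta with 3 of its known targets. Of the 36, 35 passed the filter on low values (over 1 TPM, the share of transcripts scaled to a fixed sum, in at least 1 library), as did 12442 genes in all. Hmgcs1, which encodes the HMG-CoA synthase of the mevalonate pathway, did not pass. It was listed at 0 in 10 of the 12 libraries, with at most 0.031 FPKM in the other 2, so nothing is said of its expression.

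RNA was sequenced from T blast cells (TB), which are CD4 T cells from the spleens of C57BL/6 C42 mice that were driven into division in culture. All 12 cultures carried the C42 transgene, a stretch of the human IL3/CSF2 locus. They were activated with the lectin concanavalin A at 2 µg/ml for 40 h and then grown in IL-2 at 50 U/ml. TB IL-2 cells then stayed in IL-2, whereas TB IL-2nil cells were kept without it for 16 h. TB+ IL-2 and TB+ IL-2nil cells were handled likewise and then stimulated for 2 h with PMA and a calcium ionophore (PMA/I), which mimic signalling from the T cell receptor. Each group had 3 libraries. The labels do not say whether replicates came from separate mice, so P-values measure only the spread between these samples, which may be technical. The model is a polyclonal culture of activated cells without polarising cytokines.

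The libraries labelled TB IL-2nil replicate 3 and TB+ IL-2 replicate 3 went against their labels. The mRNA for interleukin-2, which stimulated T cells make, was at 3539 TPM in the library labelled TB IL-2nil replicate 3 and at 0.997 TPM in the library labelled TB+ IL-2 replicate 3. The other unstimulated libraries held at most 4.17 TPM of Il2 and the other stimulated libraries at least 4116 TPM. Tnf gave 3142 TPM and 9.35 TPM in these 2 libraries, in the same order. In the table of normalized values published with the study, both columns match the library carrying the other label, for 100% of 1391 genes to within 0.1%. This match was found after quantile normalization of TPM, which gives every library the same distribution of values. The main values below use upper-quartile scaling instead, which the study's methods name. The 2 libraries were therefore placed in each other's group throughout, and counts are also given as labelled and without both. Deposited FPKM values summed to between 193815 and 420487 per library. The files hold no read counts. The spacing of the lowest values put relative depth between 0.409 and 1.26 of the median library, with TB IL-2nil replicate 2 the shallowest.

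Cells make cholesterol from acetyl-CoA through mevalonate, isoprenoids, squalene and lanosterol. SREBP-2, with its escort SCAP, switches on most genes of this route when sterols are scarce, while SREBP-1 acts more on fatty acid synthesis. INSIG proteins hold SCAP and the SREBPs in the endoplasmic reticulum when sterols are plentiful. For cholesterol alone, LXR receptors, which sense oxidised sterols, act in the other direction by raising its exporters. T cells that enter division need both lipids for new membrane, and IL-2 is a growth signal for them.

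Promoter sequences were available in a RefSeq table (GRCm38.p6, 250 bases before to 50 bases after each start site) for 28 of the 36 genes. Not in it were Fdps, Fdft1, Sqle, Stard4, Scd1, Scd2, Fads1 and Abcg1. Motifs were searched on both strands. The sterol regulatory element core TCACNCCAC is a form of the letters that SREBPs are known to bind. This core was found in 1 of the 28 genes, Hmgcs1, against 1.44% of the 27025 genes in the table. Its shorter form TCACNCCA was found in 3 (Hmgcs1, Msmo1 and Srebf2), against 4.97% of genes. The CCAAT box, bound by NF-Y, was found in 21 of 28, against 41.1% of genes. The short form overlaps the long form wherever that occurs, and a match is a description of the letters, not a binding site. The sequences of 5 promoters follow, chosen after values were seen. Hmgcs1 carries the sterol core, Msmo1 only its shorter form, and Idi1, Cyp51 and Hsd17b7 are sterol enzymes with a large difference between IL-2 conditions. Capitals mark CCAAT (or ATTGG, its reverse complement) and the sterol core or its shorter form.
Msmo1: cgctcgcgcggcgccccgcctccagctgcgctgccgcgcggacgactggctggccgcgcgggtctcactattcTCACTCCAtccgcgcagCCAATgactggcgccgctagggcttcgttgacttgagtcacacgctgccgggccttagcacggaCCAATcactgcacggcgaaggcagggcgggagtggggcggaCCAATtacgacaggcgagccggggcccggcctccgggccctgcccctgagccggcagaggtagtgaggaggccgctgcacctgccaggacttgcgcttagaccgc
Hmgcs1: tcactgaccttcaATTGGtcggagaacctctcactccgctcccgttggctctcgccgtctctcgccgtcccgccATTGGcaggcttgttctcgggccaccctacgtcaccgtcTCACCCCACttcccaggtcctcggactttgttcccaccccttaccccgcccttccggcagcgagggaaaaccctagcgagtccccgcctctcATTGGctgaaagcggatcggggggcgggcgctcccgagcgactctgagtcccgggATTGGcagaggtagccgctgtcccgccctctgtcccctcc
Idi1: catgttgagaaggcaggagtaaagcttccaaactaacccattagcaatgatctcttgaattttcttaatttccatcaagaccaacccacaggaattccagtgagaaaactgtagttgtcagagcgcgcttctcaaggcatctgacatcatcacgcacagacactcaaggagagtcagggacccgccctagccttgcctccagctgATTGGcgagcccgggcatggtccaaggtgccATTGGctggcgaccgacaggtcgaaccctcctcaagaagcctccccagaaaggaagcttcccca
Cyp51: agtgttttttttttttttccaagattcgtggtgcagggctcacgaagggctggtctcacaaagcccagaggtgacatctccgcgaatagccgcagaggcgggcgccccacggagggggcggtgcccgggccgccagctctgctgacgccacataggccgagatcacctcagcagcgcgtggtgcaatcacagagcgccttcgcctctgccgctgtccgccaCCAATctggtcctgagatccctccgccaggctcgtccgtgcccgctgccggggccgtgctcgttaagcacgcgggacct
Hsd17b7: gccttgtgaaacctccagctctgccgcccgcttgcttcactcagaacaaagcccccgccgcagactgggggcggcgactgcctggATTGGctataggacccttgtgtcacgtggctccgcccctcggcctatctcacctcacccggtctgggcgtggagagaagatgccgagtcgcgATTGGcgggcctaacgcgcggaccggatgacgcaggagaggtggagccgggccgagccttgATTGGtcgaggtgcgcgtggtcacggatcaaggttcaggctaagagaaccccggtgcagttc
They lie at chr8:64733529-64733828, minus strand, at chr13:119690101-119690400, plus strand, at chr13:8885356-8885655, plus strand, at chr5:4104648-4104947, minus strand, and at chr1:169969156-169969455, minus strand, all in GRCm38.p6. Msmo1 holds 3 CCAAT boxes, Hmgcs1 4, Idi1 2, Cyp51 1 and Hsd17b7 3. Idi1, Cyp51 and Hsd17b7 had neither of the 2 searched forms of the sterol core in this window. Other forms of the site were not searched, so these promoters may still hold one.

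Of the 35 genes tested, 22 were higher in TB IL-2 than in TB IL-2nil and 3 were lower, at an adjusted P under 0.05. The median difference was 1.03 on the log2(TPM + 1) scale, against -0.13 over all genes. Over all 12442 genes, 17.3% were higher and 22.3% lower. Past 3-fold as well, 10 members were higher and 2 lower, against 4.69% and 2.73% of all genes. Without the 2 libraries of doubtful label, 20 were higher and 3 lower. As labelled, none passed, with 10 higher and 0 lower at an unadjusted P under 0.05, and 15 genes passed in the whole table. These are bulk samples, in which fewer cells of a type and less RNA per cell cannot be told apart.

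In stimulated cells the presence of IL-2 gave fewer differences. There 13 members were higher in TB+ IL-2 than in TB+ IL-2nil and 1 was lower, against 12.9% and 8.4% of all genes. Past 3-fold, 6 were higher and none lower, against 3.21% and 0.41%. The median was 0.62, and -0.04 over all genes. Without both doubtful libraries the counts were 10 and 0, with 15 and 1 at an unadjusted P under 0.05. As labelled they were 1 and 0, with 10 and 0 unadjusted. The lower gene was Acss2. Leaving out any 1 of the 5 libraries named with its values below made that count 0, with 1 to 2 unadjusted. With the replicate number as a block (a term that removes what libraries of the same number share), 2 were lower. Of the 22 genes higher with IL-2 in unstimulated cells, 10 were also higher with it after PMA/I, which is 10 of the 13 on the second list. The same overlap over all genes was not counted, so it cannot be said whether this is particular to the members. The 2 comparisons share no library, but both come from the same fit and libraries of the same number were taken to pair. The 2 lists are therefore not independent.

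PMA/I itself moved members in both directions. With IL-2 present, 7 were higher and 7 lower in TB+ IL-2 than in TB IL-2, against 11.8% and 23.3% of all genes, and past 3-fold 3 were higher and 2 lower, against 3.94% and 3.1%. The median was -0.15, and -0.22 over all genes. Without IL-2, 10 were higher and 11 lower in TB+ IL-2nil than in TB IL-2nil, against 20.1% and 41.1%, and past 3-fold 8 were higher and 5 lower, against 7.78% and 10.7%. Here the median was 0.18, and -0.38 over all genes. Short non-coding RNAs held 33% to 53.2% of FPKM in TB+ IL-2nil libraries and 21.3% to 37.5% in TB IL-2nil libraries. The main scaling multiplied TPM by 1.06 to 1.72 in TB+ IL-2nil and by 0.716 to 1.03 in TB IL-2nil, so it differed between the groups compared. The split in the absence of IL-2 turned on the scaling. It was 8 higher and 14 lower with TPM alone, where the median member was at -0.36 and the median gene at -0.78, and 13 higher and 8 lower after quantile normalization, with medians of 0.21 and -0.14. Without both doubtful libraries the counts were 6 and 8 with IL-2, and 10 and 9 without it. As labelled they were 0 and 1, with 0 and 7 at an unadjusted P under 0.05, and 0 and 6, with 3 and 9 unadjusted. Without TB IL-2 replicate 1 or TB+ IL-2 replicate 1 the count raised by PMA/I with IL-2 was 4, and without TB IL-2 replicate 3, TB+ IL-2 replicate 1 or TB+ IL-2 replicate 2 the count lowered was 3. All 7 genes raised by PMA/I with IL-2 were among the 10 raised without it, and 4 of the 7 lowered with IL-2 were among the 11 lowered without it. These overlaps were not counted over all genes either.

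**Figure D1:**
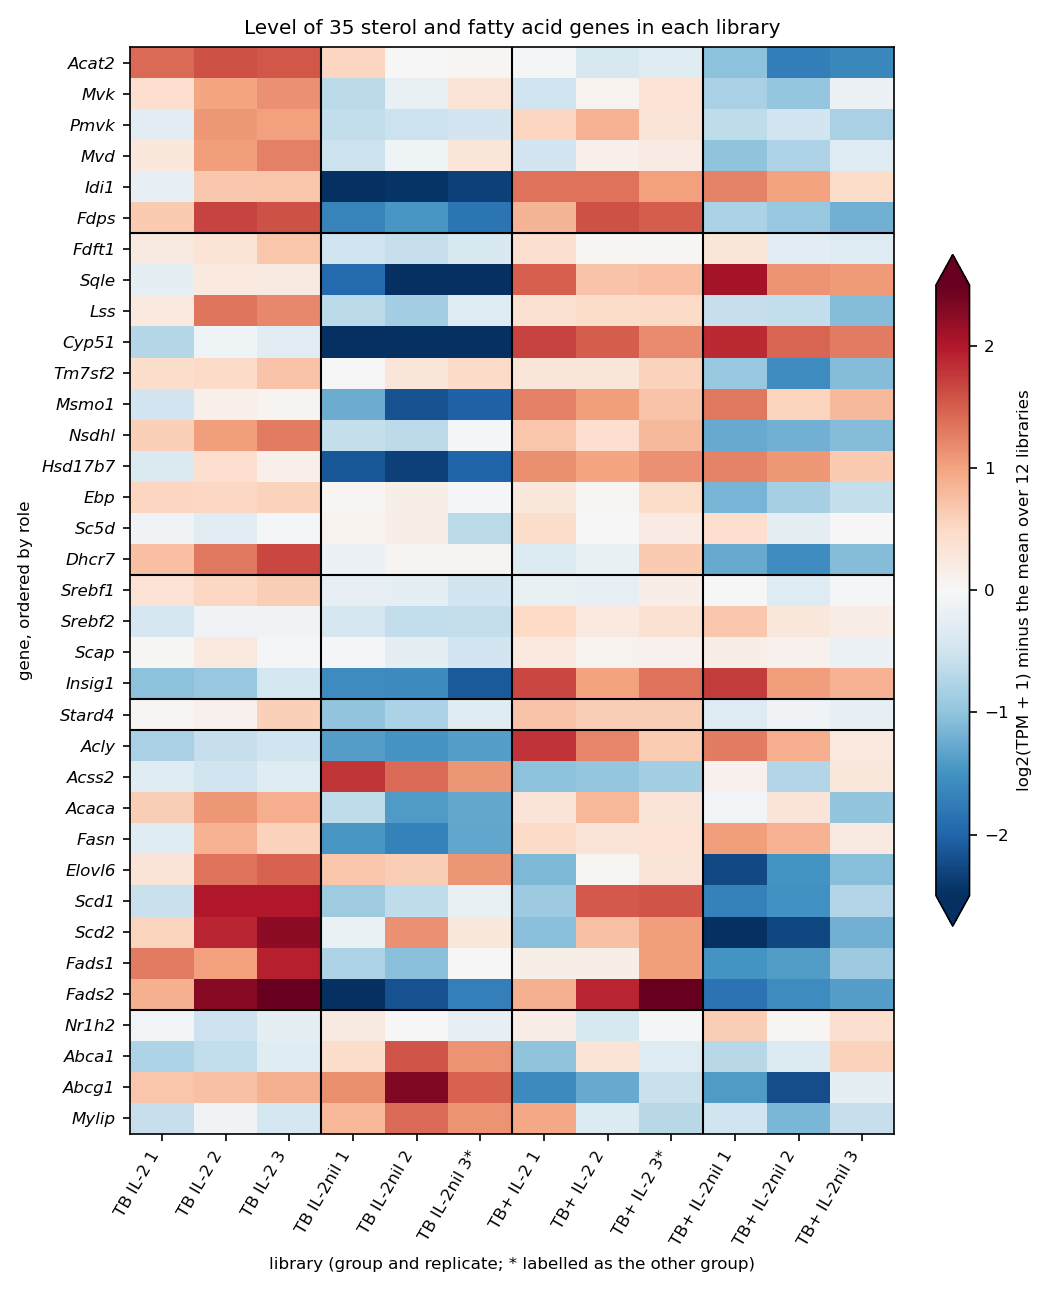
Level of each of the 35 tested genes (rows, ordered by role, with lines between roles) in each of the 12 libraries (columns, 3 per group), as log2(TPM + 1) minus that gene's mean over the libraries, with the colour scale ending at 2.5 in either direction. Idi1, Fdps, Sqle, Cyp51, Msmo1 and Hsd17b7 are at their lowest in the 3 TB IL-2nil libraries. Acss2, Abca1, Abcg1 and Mylip are at or near their highest in TB IL-2nil. Acat2, Tm7sf2, Nsdhl and Dhcr7 are at their lowest in TB+ IL-2nil. An asterisk marks the 2 libraries that carry the other group's label.

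All 6 measured enzymes from acetyl-CoA to farnesyl diphosphate were higher in TB IL-2 than in TB IL-2nil, against 17.3% of all genes. Their median difference was 1.24. Farnesyl diphosphate synthase, Fdps, joins isoprene units into the precursor of squalene and of protein prenyl groups (chromosome 3, 88897514 to 88905881, minus strand, NCBIM37). It stood at 93.5, 193 and 179 TPM in TB IL-2 replicates 1 to 3 and at 17.7, 20.8 and 15.7 TPM in TB IL-2nil. All TB IL-2 libraries were far above all TB IL-2nil libraries. The log2 difference was 2.97 (95% interval 2.34 to 3.60, adjusted P = 7.55e-05), or 7.85-fold in TPM + 1. After PMA/I, Fdps was at 106, 180 and 170 TPM in TB+ IL-2 and at 33.7, 29.9 and 24.8 TPM in TB+ IL-2nil. The groups again did not overlap, and the difference between them was 2.30 (95% interval 1.67 to 2.93, adjusted P = 0.000519). PMA/I with IL-2 gave a difference of 0.00 (-0.63 to 0.64, adjusted P = 0.999), and without IL-2 it gave 0.67 (0.04 to 1.30, adjusted P = 0.0609, and 0.0375 with the replicate number as a block).

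Idi1, the isopentenyl diphosphate isomerase that supplies the starting unit for Fdps (chromosome 13, 8884852 to 8891641, plus strand), was also lower without IL-2. It was at 52.2, 97.3 and 99.3 TPM in TB IL-2 and at 7.87, 10.2 and 11.2 TPM in TB IL-2nil, a log2 difference of 2.92 (95% interval 2.31 to 3.52, adjusted P = 6.67e-05). After stimulation, it was at 158, 156 and 124 TPM with IL-2 and 144, 122 and 83.5 TPM without. The stimulated groups overlapped, unlike those for Fdps, and differed by 0.35 (-0.26 to 0.96, adjusted P = 0.395). PMA/I raised Idi1 by 0.86 with IL-2 (adjusted P = 0.0325) and by 3.42 without it (adjusted P = 3.7e-06). The first of these calls was lost without any 1 of TB IL-2 replicate 1 or TB+ IL-2 replicates 1 or 2 (differences 0.56 to 0.81, adjusted P = 0.0933 to 0.118).

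The remaining enzymes of this stretch showed smaller differences. Cytosolic thiolase, Acat2, which makes acetoacetyl-CoA, was at 20.3, 23.1 and 22.6 TPM in TB IL-2, 10.7, 7.04 and 7.22 in TB IL-2nil, 6.72, 5.06 and 5.50 in TB+ IL-2 and 2.96, 1.43 and 1.62 in TB+ IL-2nil. No pair of these groups that was compared overlapped, and both loss of IL-2 and PMA/I went with a lower level. Its log2 differences were 1.33 for IL-2 in unstimulated cells, 1.20 for IL-2 in stimulated cells, -1.77 for PMA/I with IL-2 and -1.65 for PMA/I without, with adjusted P between 7.36e-05 and 0.00342. Acat2 shares sequence with its neighbour Acat3, so reads may be split between them. Mevalonate kinase, Mvk, was higher with IL-2 at rest by 1.03 (adjusted P = 0.0264), phosphomevalonate kinase, Pmvk, by 1.15 (adjusted P = 0.0141) and mevalonate diphosphate decarboxylase, Mvd, by 0.97 (adjusted P = 0.0293). The Mvk call was lost without any 1 of TB IL-2 replicates 2 or 3 or TB IL-2nil replicates 1 or 2 (differences 0.79 to 1.02, adjusted P = 0.0627 to 0.098). The Pmvk call was lost without any 1 of TB IL-2 replicates 2 or 3 (differences 0.91 to 0.94, adjusted P = 0.0598 to 0.0608). The Mvd call was lost without any 1 of TB IL-2 replicates 2 or 3 or TB IL-2nil replicates 1 or 2 (differences 0.76 to 0.98, adjusted P = 0.0648 to 0.112). Of these 3, only Pmvk passed in stimulated cells, at 15.8, 20.1 and 13.6 TPM with IL-2 and 6.45, 7.37 and 5.61 TPM without, a difference of 1.22 (adjusted P = 0.02, and 0.0554 without both doubtful libraries). That call was lost without any 1 of TB+ IL-2 replicate 2 or TB+ IL-2nil replicates 1 or 3 (differences 1.07 to 1.22, adjusted P = 0.0539 to 0.0709). Mvk (0.62, adjusted P = 0.201) and Mvd (0.66, adjusted P = 0.159) passed there with the replicate block, at 0.0195 and 0.00584. PMA/I with IL-2 lowered Mvd (-0.90, adjusted P = 0.0444), a call that was lost without any 1 of TB IL-2 replicates 2 or 3 or TB+ IL-2 replicates 1 or 2 (differences -0.99 to -0.69, adjusted P = 0.0721 to 0.156). For Mvk the value was -0.87 (adjusted P = 0.0574, and 0.00268 with the block). Without IL-2 PMA/I gave -0.59 for Mvd and -0.46 for Mvk, which passed only with the block (adjusted P = 0.00344 and 0.0327). Pmvk did not pass for PMA/I, with intervals of -0.73 to 0.65 and -0.79 to 0.59.

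From squalene to cholesterol, 9 of 11 enzymes were higher in TB IL-2 than in TB IL-2nil, against 17.3% of all genes. The other 2, Tm7sf2 and Sc5d, did not pass. The median difference of the 11 was 1.41. In stimulated cells 5 of the 11 were higher with IL-2, against 12.9% of all genes. PMA/I with IL-2 raised 3 and lowered 1, against 11.8% and 23.3% of all genes, and without IL-2 it raised 4 and lowered 4, against 20.1% and 41.1%. Apart from Fdft1 and Sc5d, which were in neither, the enzymes fell into 2 sets. One was brought up by PMA/I without IL-2 (Sqle, Cyp51, Msmo1 and Hsd17b7). The other was lower without IL-2 than with it after PMA/I (Lss, Tm7sf2, Nsdhl, Ebp and Dhcr7). This grouping was made from the calls after they were seen.

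Lanosterol 14-alpha-demethylase, Cyp51, takes the first step after lanosterol (chromosome 5, 4081145 to 4104746, minus strand). Its level was 41.1, 62.4 and 55.7 TPM in TB IL-2 and 10.7, 10.1 and 9.64 TPM in TB IL-2nil, and 220, 194 and 155 TPM in TB+ IL-2 and 250, 187 and 168 TPM in TB+ IL-2nil. The unstimulated groups were far apart and the stimulated groups overlapped at a higher level than either. IL-2 gave a log2 difference of 2.26 (95% interval 1.80 to 2.72, adjusted P = 6.65e-05) at rest and -0.08 (95% interval -0.54 to 0.37, adjusted P = 0.813) after PMA/I. PMA/I raised Cyp51 by 1.82 with IL-2 (adjusted P = 0.000106) and by 4.17, or 18.0-fold in TPM + 1, without it (adjusted P = 2e-07).

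Squalene epoxidase, Sqle, a rate-limiting enzyme of the route (chromosome 15, 59146632 to 59162747, plus strand), was at 43.4, 61.5 and 60.1 TPM in TB IL-2 and 12.7, 5.49 and 8.23 TPM in TB IL-2nil. In stimulated cells it was at 148, 85.5 and 87.5 TPM with IL-2 and 222, 114 and 109 TPM without. Replicate 1 was the highest library of both stimulated groups, and those groups overlapped. IL-2 made a log2 difference of 2.56 (95% interval 1.80 to 3.32, adjusted P = 0.000356) at rest and -0.43 (95% interval -1.19 to 0.32, adjusted P = 0.4) after PMA/I. PMA/I raised Sqle without IL-2 by 3.92 (adjusted P = 6.34e-06). With IL-2 the value was 0.92 (adjusted P = 0.0601, and 0.0283 with the replicate block).

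Hsd17b7, the 3-ketosteroid reductase of this route (chromosome 1, 171879666 to 171899372, minus strand), was at 7.20, 13.2 and 10.6 TPM in TB IL-2, 1.43, 1.10 and 1.63 TPM in TB IL-2nil, 22.6, 20.0 and 22.3 TPM in TB+ IL-2 and 23.9, 21.6 and 15.7 TPM in TB+ IL-2nil. The TB IL-2nil libraries were the lowest and the stimulated groups overlapped. Its IL-2 difference was 2.22 (95% interval 1.74 to 2.70, adjusted P = 8.16e-05) at rest and 0.10 (95% interval -0.38 to 0.58, adjusted P = 0.779) after PMA/I. PMA/I raised it by 1.03 with IL-2 and by 3.15 without (adjusted P = 0.00422 and 1.57e-06). Msmo1, the C4-methylsterol oxidase whose promoter is printed above, was at 26.5, 40.6 and 39.2 TPM in TB IL-2, 15.2, 7.44 and 8.39 TPM in TB IL-2nil, 90.9, 77.8 and 61.1 TPM in TB+ IL-2 and 93.5, 54.9 and 66.0 TPM in TB+ IL-2nil. It followed the same order as Hsd17b7. IL-2 gave 1.72 at rest (adjusted P = 0.00122) and 0.12 after PMA/I (interval -0.52 to 0.75), and PMA/I gave 1.10 with IL-2 and 2.70 without (adjusted P = 0.0136 and 2.06e-05). For Msmo1 the PMA/I call with IL-2 was lost without any 1 of TB IL-2 replicate 1 or TB+ IL-2 replicate 1 (differences 0.91 to 0.96, adjusted P = 0.0546 to 0.0566).

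In the other set, the sterol dehydrogenase Nsdhl was at 13.3, 18.7 and 22.4 TPM in TB IL-2, 5.28, 5.10 and 8.25 TPM in TB IL-2nil, 14.4, 11.7 and 15.6 TPM in TB+ IL-2 and 2.99, 3.15 and 3.47 TPM in TB+ IL-2nil. The 3 libraries without IL-2 were lowest after PMA/I. IL-2 gave 1.41 (95% interval 0.93 to 1.89, adjusted P = 0.000762) at rest and 1.82 (95% interval 1.34 to 2.30, adjusted P = 0.000433) in stimulated cells, and PMA/I without IL-2 lowered it (-0.75, adjusted P = 0.0113, and 0.0572 without both doubtful libraries). Dhcr7, the reductase that makes cholesterol in the last step of its branch, was at 12.2, 18.5 and 23.8 TPM in TB IL-2, 6.08, 7.18 and 7.18 TPM in TB IL-2nil, 5.12, 5.85 and 11.3 TPM in TB+ IL-2 and 2.25, 1.67 and 2.69 TPM in TB+ IL-2nil. PMA/I lowered Dhcr7 with IL-2 (-1.21, adjusted P = 0.00773) and without it (-1.29, adjusted P = 0.00235), and it was higher with IL-2 at rest (1.25, adjusted P = 0.00587) and after PMA/I (1.34, adjusted P = 0.00831). Lanosterol synthase, Lss, was higher with IL-2 by 1.54 at rest and 1.20 after PMA/I (adjusted P = 0.00154 and 0.0111), with no call for PMA/I.

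The sterol isomerase Ebp was higher with IL-2 by 0.49 at rest (adjusted P = 0.0384, and 0.109 without both doubtful libraries) and by 1.12 in stimulated cells (adjusted P = 0.00141). The resting call was lost without any 1 of TB IL-2 replicates 1, 2 or 3, TB IL-2nil replicates 1 or 2, or the library labelled TB+ IL-2 replicate 3 (differences 0.45 to 0.53, adjusted P = 0.0612 to 0.101). In the absence of IL-2, PMA/I lowered Ebp (-0.92, adjusted P = 0.000731). Tm7sf2, a sterol 14-reductase, gave low levels of 3.55, 3.69 and 4.51 TPM in TB IL-2, 2.36, 3.14 and 3.66 TPM in TB IL-2nil, 3.14, 3.13 and 4.03 TPM in TB+ IL-2 and 0.743, 0.130 and 0.587 TPM in TB+ IL-2nil. Only the stimulated libraries without IL-2 stood apart from the rest. PMA/I without IL-2 lowered it (-1.46, adjusted P = 9.07e-05) and IL-2 gave 1.59 in stimulated cells (adjusted P = 0.000488). With IL-2 present the PMA/I difference was -0.15 (-0.58 to 0.28). Squalene synthase, Fdft1, passed only at rest (0.90, adjusted P = 0.00522). Sc5d, the sterol C5-desaturase, passed in no comparison, between 25.6 and 56.8 TPM over all libraries and with a resting interval of -0.53 to 0.54.

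**Figure D2:**
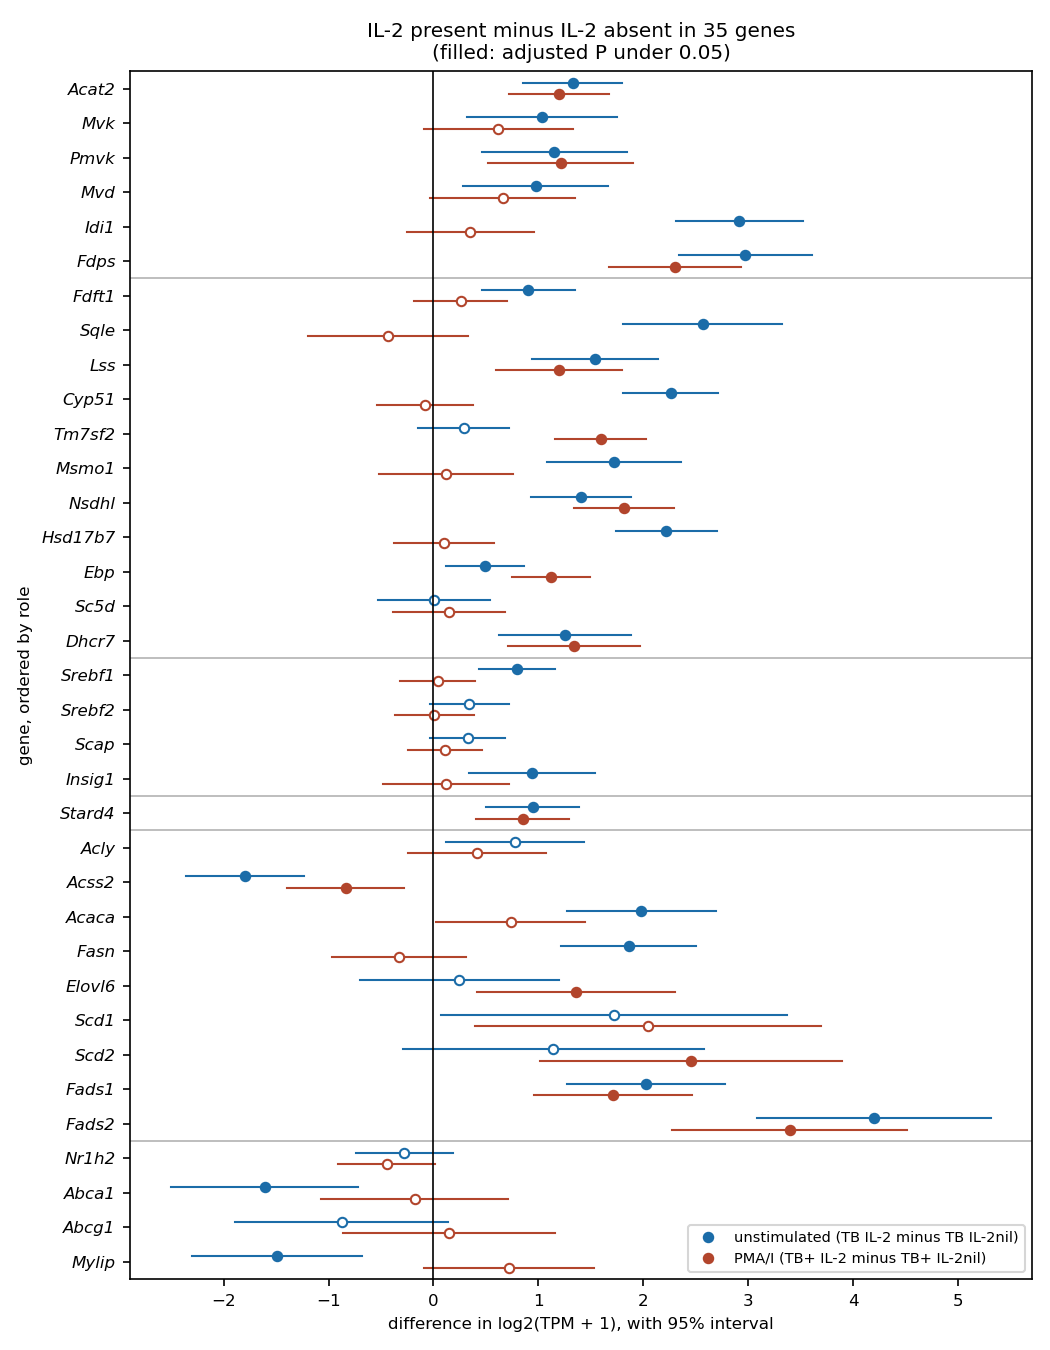
Difference between IL-2 present and IL-2 absent on the log2(TPM + 1) scale (x axis) for the 35 tested genes (y axis, ordered by role), in unstimulated cells (blue) and in PMA/I-stimulated cells (red), with 95% intervals and filled points where the adjusted P is under 0.05. Fdps, Lss, Nsdhl, Dhcr7, Fads1 and Fads2 have filled points to the right of 0 in both states, whereas those of Idi1, Sqle, Cyp51, Msmo1, Hsd17b7 and Fasn are filled only in unstimulated cells.

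The genes that control the route moved less at rest. Of the 4, Srebf1 and Insig1 were higher in TB IL-2 than in TB IL-2nil, against 17.3% of all genes. None of the 4 differed by 3-fold there, and none passed between the stimulated groups. Srebf1, which encodes SREBP-1, was at 49.9, 56.2 and 59.8 TPM in TB IL-2 and 33.7, 32.8 and 27.8 TPM in TB IL-2nil, a log2 difference of 0.80 (95% interval 0.44 to 1.16, adjusted P = 0.00336). With PMA/I and IL-2 Srebf1 was at 34.0, 33.4 and 43.6 TPM, lower than in TB IL-2 (-0.57, adjusted P = 0.019), a call that was lost without any 1 of TB IL-2 replicate 3 or TB+ IL-2 replicates 1 or 2 (differences -0.52 to -0.51, adjusted P = 0.0691 to 0.0738). Srebf2, which encodes SREBP-2, did not pass for IL-2 at rest (0.34, -0.04 to 0.72). PMA/I raised Srebf2 by 0.58 with IL-2 (adjusted P = 0.0224, and 0.0675 without both doubtful libraries) and by 0.91 without (adjusted P = 0.000815). The first of these was lost without any 1 of TB IL-2 replicate 1, TB+ IL-2 replicate 1, or the library labelled TB IL-2nil replicate 3 (differences 0.47 to 0.57, adjusted P = 0.0527 to 0.086). The opposite signs of Srebf1 and Srebf2 for PMA/I with IL-2 were not tested against each other. Scap passed in no comparison and stayed between 23.5 and 39.6 TPM.

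Insig1, a retention factor for SCAP and itself an SREBP target, was among the genes most raised by PMA/I. It was at 45.3, 47.6 and 68.0 TPM in TB IL-2, 30.5, 30.4 and 21.1 TPM in TB IL-2nil, 297, 187 and 239 TPM in TB+ IL-2 and 316, 194 and 171 TPM in TB+ IL-2nil. Every stimulated library was above every unstimulated library, and the stimulated groups overlapped. PMA/I gave 2.15 (95% interval 1.55 to 2.75, adjusted P = 0.000213) with IL-2 and 2.97 (95% interval 2.37 to 3.57, adjusted P = 8.15e-06) without. The IL-2 difference at rest was 0.94 (adjusted P = 0.0185, and 0.088 without both doubtful libraries) and was lost without any 1 of TB IL-2 replicate 3 or the library labelled TB+ IL-2 replicate 3 (differences 0.76 to 0.77, adjusted P = 0.0674 to 0.0765). After PMA/I it was 0.12 (-0.49 to 0.72). Stard4, a carrier that moves cholesterol between membranes, was higher with IL-2 at rest by 0.94 and after PMA/I by 0.85 (adjusted P = 0.00429 and 0.0139). The second of these was lost without TB+ IL-2nil replicate 1 (difference 0.79, adjusted P = 0.0517). PMA/I without IL-2 gave 0.50 (adjusted P = 0.052, and 0.0268 with the block).

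**Figure D3:**
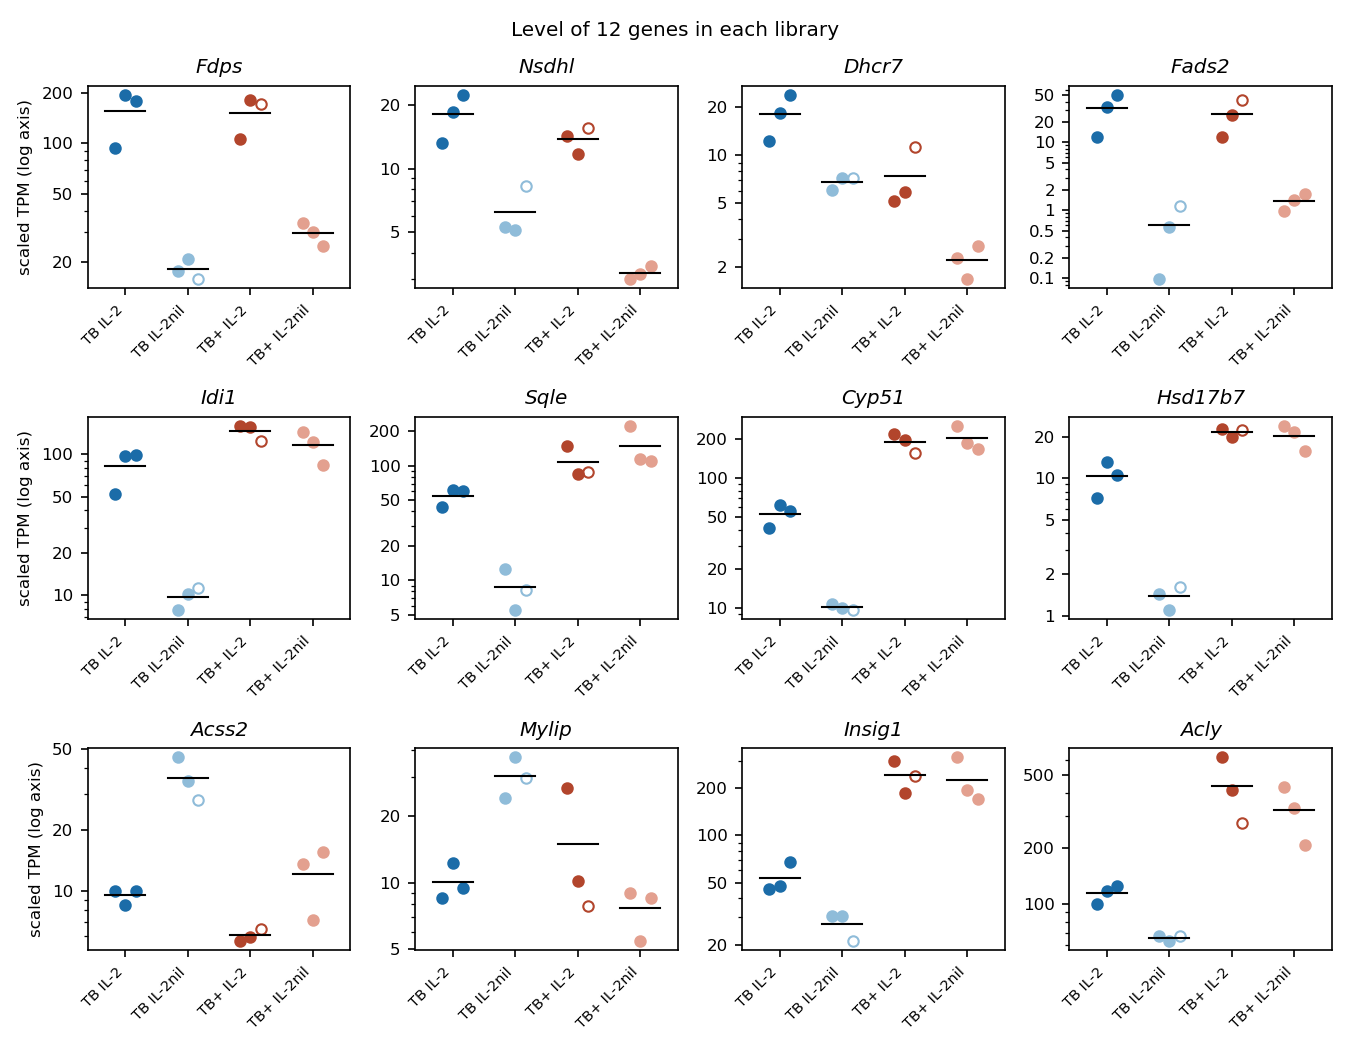
Scaled TPM (y axis, log scale with its own range in each panel) of 12 genes in each library (points, 3 per group, offset by replicate number), with the group mean as a line and open points for the 2 libraries that carry the other group's label. In the first row Fdps, Nsdhl, Dhcr7 and Fads2 are lower in TB+ IL-2nil than in TB+ IL-2, in the second row Idi1, Sqle, Cyp51 and Hsd17b7 overlap between those groups, and in the last row Acss2 and Mylip have their highest group mean in TB IL-2nil while Insig1 and Acly are highest after PMA/I.

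Among the 9 enzymes of fatty acid synthesis and desaturation, Acaca, Fasn, Fads1 and Fads2 were higher in TB IL-2 than in TB IL-2nil and Acss2 was lower. Over all genes, 17.3% were higher and 22.3% lower. The 4 higher enzymes all passed 3-fold, against 4.69% of all genes. Fatty acid synthase, Fasn (chromosome 11, 120667254 to 120685492, minus strand), was at 61.8, 140 and 113 TPM in TB IL-2 and 27.1, 22.9 and 30.4 TPM in TB IL-2nil, and at 106, 95.3 and 97.6 TPM in TB+ IL-2 and 159, 139 and 88.7 TPM in TB+ IL-2nil. The unstimulated groups did not overlap and the stimulated groups did, as for Idi1 and Cyp51. IL-2 made a difference of 1.86 (95% interval 1.22 to 2.50, adjusted P = 0.000807) at rest and -0.33 (95% interval -0.97 to 0.31, adjusted P = 0.457) after PMA/I. PMA/I raised Fasn without IL-2 by 2.19 (adjusted P = 8.36e-05) and gave 0.00 with it (-0.64 to 0.64). Acaca, the acetyl-CoA carboxylase that makes malonyl-CoA for Fasn, was higher with IL-2 at rest by 1.98 (adjusted P = 0.001), at 21.6, 30.3 and 26.6 TPM against 8.50, 4.53 and 5.04 TPM. PMA/I without IL-2 raised it by 0.86 (adjusted P = 0.0372, and 0.121 without both doubtful libraries), a call that was lost without any 1 of TB IL-2nil replicate 2, TB+ IL-2nil replicates 1 or 2, or the library labelled TB+ IL-2 replicate 3 (differences 0.58 to 0.78, adjusted P = 0.103 to 0.149).

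The desaturases Fads1 (delta-5) and Fads2 (delta-6), which make polyunsaturated fatty acids, are neighbours on chromosome 19, at 10257378 to 10271360 on the plus strand and 10138654 to 10175993 on the minus strand. Fads2 was at 12.2, 33.2 and 49.6 TPM in TB IL-2 and 0.0962, 0.558 and 1.16 TPM in TB IL-2nil, and at 12.1, 25.5 and 42.2 TPM in TB+ IL-2 and 0.969, 1.40 and 1.72 TPM in TB+ IL-2nil. Every library with IL-2 was above every library without it. The log2 difference was 4.20 (95% interval 3.08 to 5.32, adjusted P = 0.000203) at rest, the largest of the 35 genes, and 3.40 (95% interval 2.28 to 4.51, adjusted P = 0.00135) in stimulated cells. Fads1 was at 20.7, 17.0 and 32.8 TPM in TB IL-2, 4.19, 3.29 and 7.77 TPM in TB IL-2nil, 8.84, 8.81 and 17.3 TPM in TB+ IL-2 and 2.15, 2.38 and 3.73 TPM in TB+ IL-2nil. IL-2 made a difference of 2.03 at rest and 1.71 after PMA/I (adjusted P = 0.00122 and 0.00593), and PMA/I with IL-2 lowered Fads1 (-0.97, adjusted P = 0.0473), a call that was lost without any 1 of TB IL-2 replicates 1 or 3 or TB+ IL-2 replicates 1 or 2 (differences -1.03 to -0.71, adjusted P = 0.082 to 0.17). Without IL-2, PMA/I gave -0.65 (adjusted P = 0.12, and 0.00214 with the block). Fads2 did not pass for PMA/I, with intervals of -1.32 to 0.91 and -0.52 to 1.72.

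Acly, the ATP citrate lyase that supplies cytosolic acetyl-CoA to both routes, was at 100, 117 and 125 TPM in TB IL-2, 67.1, 63.0 and 67.6 TPM in TB IL-2nil, 621, 414 and 274 TPM in TB+ IL-2 and 426, 331 and 209 TPM in TB+ IL-2nil. PMA/I raised it in both states, by 1.85 with IL-2 and 2.21 without (adjusted P = 0.000963 and 9.34e-05). Its resting groups did not overlap, with an IL-2 difference of 0.78 (adjusted P = 0.0598, and 0.0361 with the block). Acss2, which makes the same acetyl-CoA from acetate, went the other way. It was at 9.91, 8.51 and 9.99 TPM in TB IL-2, 45.5, 34.8 and 28.0 TPM in TB IL-2nil, 5.64, 5.92 and 6.49 TPM in TB+ IL-2 and 13.6, 7.15 and 15.5 TPM in TB+ IL-2nil. The TB IL-2nil libraries were the highest, and IL-2 made a difference of -1.80 (95% interval -2.36 to -1.24, adjusted P = 0.000475) at rest. After PMA/I the value was -0.84 (adjusted P = 0.0389, and 0.0876 without both doubtful libraries), and this call was lost without any 1 of TB+ IL-2 replicates 1 or 2, TB+ IL-2nil replicates 1 or 3, or the library labelled TB IL-2nil replicate 3 (differences -0.89 to -0.64, adjusted P = 0.0848 to 0.13). PMA/I without IL-2 lowered it (-1.54, adjusted P = 0.000367).

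The delta-9 desaturases Scd1 and Scd2, near copies that reads may not separate fully, were lowest in replicate 1 of both groups with IL-2. Scd2 was at 95.3, 242 and 305 TPM in TB IL-2, 57.4, 143 and 78.1 TPM in TB IL-2nil, 30.5, 107 and 133 TPM in TB+ IL-2 and 6.28, 12.4 and 27.3 TPM in TB+ IL-2nil. The stimulated groups were apart and the unstimulated groups overlapped. Its IL-2 difference was 2.45 after PMA/I (adjusted P = 0.0226, and 0.116 without both doubtful libraries) and 1.14 at rest (adjusted P = 0.185, and 0.0172 with the block). The first call was lost without any 1 of TB+ IL-2 replicate 2, TB+ IL-2nil replicate 1, or the library labelled TB IL-2nil replicate 3 (differences 1.98 to 2.21, adjusted P = 0.0749 to 0.0926). Scd2 was lowered by PMA/I without IL-2 (-2.63, adjusted P = 0.00471), and with IL-2 it gave -1.32 (adjusted P = 0.139, and 0.00989 with the block). Scd1 passed in no comparison. Its IL-2 differences, 1.72 at rest and 2.05 after PMA/I (adjusted P = 0.0904 and 0.0757), passed with the block (adjusted P = 0.0132 and 0.00965). The elongase Elovl6 was lowered by PMA/I with IL-2 (-1.30, adjusted P = 0.0366) and without it (-2.42, adjusted P = 0.000588). In stimulated cells it was higher with IL-2 by 1.36 (adjusted P = 0.0446, and 0.183 without both doubtful libraries). The PMA/I call with IL-2 was lost without any 1 of TB IL-2 replicates 2 or 3 or TB+ IL-2 replicates 1 or 2 (differences -1.45 to -0.86, adjusted P = 0.055 to 0.138), and the IL-2 call in stimulated cells was lost without any 1 of TB+ IL-2 replicate 2, TB+ IL-2nil replicates 1 or 2, or the library labelled TB IL-2nil replicate 3 (differences 1.04 to 1.42, adjusted P = 0.0727 to 0.164).

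None of the 4 LXR genes was higher with IL-2, against 17.3% of all genes at rest and 12.9% after PMA/I. With only 4 genes, a count of none is near these shares. Abca1 and Mylip were lower with IL-2 at rest, as were 22.3% of all genes. After PMA/I none of the 4 was lower, against 8.4% of all genes. Abca1, a cholesterol exporter, was at 0.586, 0.757 and 1.17 TPM in TB IL-2 and 2.66, 6.97 and 4.89 TPM in TB IL-2nil, without overlap, a difference of -1.61 (95% interval -2.50 to -0.72, adjusted P = 0.00955). PMA/I without IL-2 lowered it (-1.20, adjusted P = 0.0237, and 0.0754 without both doubtful libraries), a call that was lost without any 1 of TB IL-2nil replicate 2, TB+ IL-2nil replicates 1 or 2, or the library labelled TB+ IL-2 replicate 3 (differences -1.16 to -0.94, adjusted P = 0.0593 to 0.0951). Mylip, a ubiquitin ligase that marks lipoprotein receptors for degradation, was at 8.56, 12.3 and 9.42 TPM in TB IL-2, 24.2, 36.9 and 29.9 TPM in TB IL-2nil, 26.8, 10.1 and 7.82 TPM in TB+ IL-2 and 8.98, 5.44 and 8.54 TPM in TB+ IL-2nil. TB IL-2nil had the highest mean, and 1 stimulated library, TB+ IL-2 replicate 1, lay within its range. IL-2 made a difference of -1.49 (95% interval -2.31 to -0.68, adjusted P = 0.0089) at rest, and PMA/I without IL-2 lowered Mylip (-1.86, adjusted P = 0.0012).

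Abcg1, the other exporter, was lowered by PMA/I in both states. It was at 23.3, 24.0 and 27.1 TPM in TB IL-2, 32.6, 73.7 and 41.1 TPM in TB IL-2nil, 3.99, 5.26 and 9.28 TPM in TB+ IL-2 and 4.68, 2.23 and 11.9 TPM in TB+ IL-2nil. Every stimulated library was below every unstimulated library. PMA/I gave -1.91 (95% interval -2.92 to -0.90, adjusted P = 0.00839) with IL-2 and -2.94 (95% interval -3.95 to -1.93, adjusted P = 0.000249) without. The resting IL-2 groups did not overlap either, but the difference of -0.88 did not pass (interval -1.89 to 0.13, adjusted P = 0.151). Nr1h2, which encodes LXR-beta, passed in no comparison, between 33.5 and 74.4 TPM over the libraries. With the block, PMA/I without IL-2 (0.35, adjusted P = 0.169 and then 0.0424) and IL-2 in stimulated cells (-0.45, adjusted P = 0.156 and then 0.0316) passed.

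An interaction term asks whether the effect of PMA/I differed with and without IL-2. It passed for 7 of the 35 genes, 5 negative (Idi1, Sqle, Cyp51, Hsd17b7 and Fasn) and 2 positive (Tm7sf2 and Mylip), against 2.66% negative and 1.57% positive over all genes. Negative values mean that PMA/I raised the gene more without IL-2. For Sqle the interaction was -3.00 (95% interval -4.07 to -1.93, adjusted P = 0.0145), for Idi1 -2.57 (95% interval -3.42 to -1.71, adjusted P = 0.0122), for Cyp51 -2.35 (95% interval -2.99 to -1.70, adjusted P = 0.0106), for Fasn -2.19 (95% interval -3.10 to -1.28, adjusted P = 0.0243) and for Hsd17b7 -2.12 (95% interval -2.79 to -1.44, adjusted P = 0.0116). All 5 began from a low level in TB IL-2nil and reached stimulated levels that overlapped between the IL-2 conditions. For Mylip it was 2.21 (95% interval 1.06 to 3.36, adjusted P = 0.0423) and for Tm7sf2 1.31 (95% interval 0.70 to 1.92, adjusted P = 0.0309), and PMA/I lowered these 2 where IL-2 was absent. For Msmo1 the value was -1.60 (adjusted P = 0.0534, and 0.0334 with the block). Without both doubtful libraries none of the 35 passed, with 3 positive and 7 negative at an unadjusted P under 0.05, and 4 genes passed in the whole table. Single libraries mattered for 3 of the 7. The call for Tm7sf2 was lost without any 1 of TB IL-2 replicates 2 or 3, TB IL-2nil replicate 2, TB+ IL-2 replicates 1 or 2, TB+ IL-2nil replicate 2, the library labelled TB IL-2nil replicate 3, or the library labelled TB+ IL-2 replicate 3 (differences 1.13 to 1.39, adjusted P = 0.0563 to 0.0806). The call for Mylip was lost without any 1 of TB IL-2 replicates 1, 2 or 3, TB IL-2nil replicates 1 or 2, TB+ IL-2 replicate 2, TB+ IL-2nil replicates 1 or 2, or the library labelled TB+ IL-2 replicate 3 (differences 2.02 to 2.38, adjusted P = 0.0588 to 0.103). The call for Fasn was lost without any 1 of TB IL-2 replicates 2 or 3, TB IL-2nil replicate 2, TB+ IL-2 replicate 2, TB+ IL-2nil replicates 1 or 2, or the library labelled TB IL-2nil replicate 3 (differences -2.17 to -1.95, adjusted P = 0.0547 to 0.0659). Over the 12 fits that each left out 1 library, 4 to 7 genes were negative and 0 to 2 positive, and with 0 positive there were 4 to 5 at an unadjusted P under 0.05. The 7 values without both doubtful libraries ran from -2.86 for Sqle to 2.55 for Mylip, with adjusted P between 0.0583 and 0.122. With TPM alone none passed, and 1 gene did in the whole table.

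**Figure D4:**
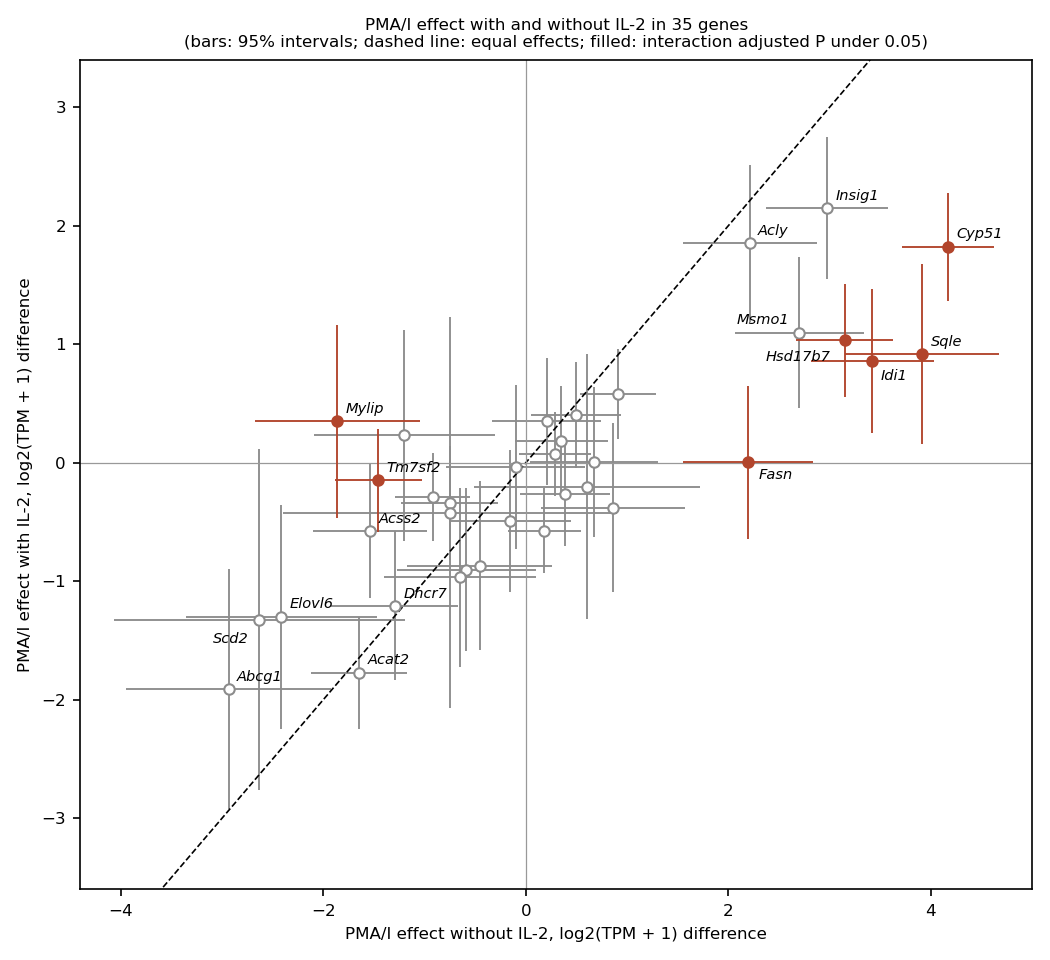
Effect of PMA/I without IL-2 (x axis) and with IL-2 (y axis) on each of the 35 tested genes, as log2(TPM + 1) differences with 95% intervals and a dashed line where the effects are equal. Filled points are the 7 genes whose interaction passed an adjusted P of 0.05, with Cyp51, Sqle, Idi1, Hsd17b7 and Fasn to the right of the line and Mylip and Tm7sf2 to its left.

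Summed over the 36 genes, expression was 1125 to 1816 TPM in TB IL-2, 723 to 841 TPM in TB IL-2nil, 2028 to 2433 TPM in TB+ IL-2 and 1442 to 2241 TPM in TB+ IL-2nil. TB IL-2nil was lowest without overlap, and the stimulated groups overlapped. Abundant genes weigh most in this sum, so it does not stand for the set. From TB IL-2 to TB+ IL-2 the mean of Acly went from 114 to 436 TPM and that of Insig1 from 53.6 to 241 TPM. In that comparison 7 members were higher and 7 lower, with a median difference of -0.15.

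Other genes of the same pathways were counted in the same fit, and the shares of all genes given above apply to these counts too. Of 13 further sterol genes, 2 were higher and 5 lower in TB IL-2 than in TB IL-2nil, with a median of -0.26, and PMA/I with IL-2 raised 1 and lowered 6. Tmem97, a sterol-binding membrane protein, was higher with IL-2 at rest by 2.82 (adjusted P = 0.000148) and Npc2, a lysosomal cholesterol carrier, was lower (-1.14, adjusted P = 0.00465). Stard3, a late endosomal sterol carrier, was raised by PMA/I with IL-2 by 1.24 (adjusted P = 0.00214). Of 18 further genes of fatty acid and glycerolipid synthesis that were tested (of 19 listed), 7 were higher with IL-2 at rest and none lower, with a median of 0.45, and PMA/I with IL-2 raised 3 and lowered 3. The acyl-CoA synthetases Acsl3 (1.59, adjusted P = 0.000878) and Acsl5 (1.08, adjusted P = 0.00144), the elongation enzyme Hsd17b12 (1.52, adjusted P = 0.0007) and Mid1ip1, an activator of acetyl-CoA carboxylase (1.05, adjusted P = 0.00152), were higher with IL-2 by over 2-fold, and Acsl4 was raised by PMA/I with IL-2 (1.29, adjusted P = 0.00615). Of 13 genes of fatty acid oxidation, the opposite route, 4 were higher and 3 lower with IL-2 at rest, with a median of -0.09. PMA/I lowered 3 of the 13 with IL-2, near the 23.3% of all genes, and 9 without it, against 41.1%, and raised none. Etfb, which passes on electrons from this route, was higher with IL-2 at rest (1.03, adjusted P = 0.00144) and Acadm, a medium-chain dehydrogenase, lower (-1.10, adjusted P = 0.0102). Cpt2, of the mitochondrial carnitine shuttle, was lowered by PMA/I with IL-2 (-2.02, adjusted P = 2.39e-06).

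Markers of dividing cells also moved with IL-2, and their part in the results was not tested. Of 8 (Mki67, Top2a and the like), 6 were higher with IL-2 by over 3-fold both at rest and after PMA/I. The shares of all genes were 4.69% and 3.21%. The 8 markers had medians of 2.58 at rest and 3.29 after PMA/I. Their summed level was 1470 to 1994 TPM in TB IL-2, 111 to 447 TPM in TB IL-2nil, 697 to 1252 TPM in TB+ IL-2 and 49.6 to 196 TPM in TB+ IL-2nil. Stimulation without IL-2 lowered 4 of the 8 and raised none, against 41.1% of all genes lowered. All 3 B cell markers were higher without IL-2 in both states, against 22.3% of all genes at rest and 8.4% after PMA/I. The B cell markers summed to 20.4 to 26.6 TPM in TB IL-2nil and to at most 12.1 TPM in the other groups. Their part in the results was not tested. CD4 T cell markers (3 of the 4 listed were in the table) also moved with IL-2. In each state 2 of the 3 were lower with it, against the same 22.3% and 8.4% of all genes. The 3 CD4 markers summed to 751 to 772 TPM in TB IL-2 and 1175 to 1344 TPM in TB IL-2nil. After PMA/I they summed to 612 to 718 TPM in TB+ IL-2 and 857 to 1057 TPM in TB+ IL-2nil. The IL-2 conditions did not overlap in either state. The part of the CD4 markers in the results was not tested. CD8 markers summed to 6.91 to 31.9 TPM with replicate 1 the highest of each group, myeloid markers to at most 4.88 TPM and NK markers to at most 0.303 TPM, with Ncr1 listed at 0 throughout.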

How the data were processed

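Total RNA of 12 cultures was depleted of ribosomal RNA and sequenced as directional libraries. Per the labels and the study's methods, the authors trimmed reads (Trimmomatic 0.32), aligned them to mm9 (HISAT2 2.1.0) and assigned them to RefSeq genes with StringTie 1.3.3, and deposited 1 table of FPKM per library. FPKM, fragments scaled by gene length and library size, hold no counts, so no counting interval or limit for a 0 is given.

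Each library's FPKM were divided by their sum and multiplied by 1e+06 to give TPM. A gene was kept where any library exceeded 1 TPM, and libraries were scaled to a common upper quartile and taken as log2(TPM + 1). The 4 groups were fitted together with limma 3.58.1 in R 4.3.3, with Benjamini-Hochberg adjustment over all 12442 genes, and the code was tested on simulated data. Changed means an adjusted P under 0.05. Fold values and fold thresholds are ratios of TPM + 1, which for genes at low levels lie closer to no change than ratios of TPM. The labels' groups were used except for the 2 exchanged libraries. The 36 members and the lists were chosen with earlier results of these data known. All members are named, and a gene of the 3 further pathway lists is named where it passed and differed by more than 2-fold with IL-2 at rest or with PMA/I in IL-2. Promoters were to be shown for members that passed at rest and hold the sterol core, which Msmo1 alone met, by the shorter form, and the other 4 were added afterwards. Gene positions are those of NCBIM37 in GENCODE.

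The labels number replicates 1 to 3 in each group. Deviations from the group means correlated between libraries of the same number by 0.101 to 0.531 over 18 pairs, and between different numbers by -0.416 to 0.171 over 36 pairs, so the numbers were taken to pair the samples. The study's methods name no block, so the main values have none and a blocked value is given where it changed a call. Alternatives covered the placement of the 2 libraries, the pseudocount, the filter, the scaling, short non-coding RNAs, a variance trend, the groups in the fit, the block, the fold threshold and each library left out.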

Additional observations from a re-analysis of the deposited data

Results flagged for a closer look

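In 7 of the 35 genes the test of the interaction found that the PMA/I effect with IL-2 differed from that without it. The difference of the 2 effects on the log2(TPM + 1) scale was -3.00 for Sqle, -2.567 for Idi1, -2.345 for Cyp51, -2.19 for Fasn and -2.116 for Hsd17b7, whose PMA/I effect was more positive without IL-2. It was 1.308 for Tm7sf2 and 2.211 for Mylip, which PMA/I lowered without IL-2. All 7 kept their sign without both libraries of doubtful label, but none then passed, with limma's adjusted P between 0.0583 and 0.122. With 3 libraries a group, no test for single outlying libraries was made.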

How the results depend on the processing

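The placement of the 2 libraries that went against their labels decided most calls. As labelled, the counts higher and lower were 0 and 0 for IL-2 at rest, 0 and 1 for PMA/I with IL-2, 0 and 6 for PMA/I without it, 1 and 0 for IL-2 in stimulated cells and 0 and 0 for the interaction (2 positive and 2 negative unadjusted, the others as in the report). Of 175 member differences, 70 then lost their call, and 3 that had been called changed sign, Insig1 for IL-2 at rest (-0.20) and Idi1 (-0.26) and Hsd17b7 (-0.0171) for PMA/I with IL-2. In the other alternatives no called member difference changed sign. Without both libraries, 17 of 175 lost their call and 2 gained one, with 0 lower for IL-2 in stimulated cells and 0 positive and 0 negative interactions. A pseudocount of 0.1 gave 4 lower for PMA/I with IL-2 and 0 positive interactions (4 unadjusted). With no filter on low values these were 1 and 0 (4 unadjusted), with 1 negative interaction and 0 lower for IL-2 in stimulated cells (1 unadjusted). With TPM alone they were 4 and 0, with 0 negative (6 positive and 6 negative unadjusted) and 0 lower for IL-2 in stimulated cells (0 unadjusted). Quantile normalization gave 4 lower for PMA/I with IL-2. Fitting only the groups compared gave 0 lower for IL-2 in stimulated cells (1 unadjusted). The replicate block gave 2 there, and it added the 17 calls given in the report and changed no other call. Asking for more than 3-fold as well left 10 higher with IL-2 at rest, 3 higher and 2 lower for PMA/I with IL-2, 5 lower for PMA/I without it, and 6 higher and 0 lower for IL-2 in stimulated cells. Leaving out each library in turn gave 17 to 22 higher and 3 lower for IL-2 at rest, 4 to 7 higher and 3 to 8 lower for PMA/I with IL-2, 9 to 10 higher and 10 to 11 lower for PMA/I without it, 9 to 14 higher and 0 to 1 lower for IL-2 in stimulated cells, and 4 to 7 negative and 0 to 2 positive interactions. A stricter filter, a variance trend and removal of short non-coding RNAs each lost 0 calls and gained 2 to 3. The FPKM tables hold no read depth, and 3 libraries a group limit the precision.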
